A study of Mus musculus with 8 samples.

Results

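A group of 10 genes of Toll-like receptor and NF-kB signalling was followed through total lung RNA sequencing of *Wfdc2*-mutant and control mice. They are the receptors *Tlr2* and *Tlr4*, the NF-kB subunit gene *Nfkb1*, the NF-kB regulators *Nfkbia*, *Nfkbiz*, *Bcl3* and *Tnfaip3*, the feedback genes *Socs3* and *Zfp36*, and *Ptgs2*. They were chosen by name, with earlier results of these data known, and all 10 were among the 25965 genes of the deposited values and among the 15627 genes tested. Lungs came from Wfdc2 +/+ mice and from Wfdc2 GFP/GFP mice, at E18.5 before birth and at P1.5 after birth, with 2 libraries in each of the 4 groups. The mutant allele carries an IRES-EGFP cassette in place of part of the first exon and the whole second exon of *Wfdc2*, which encodes a secreted protease inhibitor of the airway epithelium, so the gene is lost in every cell and not in a chosen cell type. The line was made in TT2 embryonic stem cells and its selection cassette was removed with CAG-Cre. The targeted gene had 8038 to 32845 reads in controls (Wfdc2 +/+) and 0 to 12 in mutants (Wfdc2 GFP/GFP).

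Toll-like receptors recognise microbial products and products of damaged tissue, and signal through adaptor proteins to the IkB kinases. These kinases release NF-kB dimers into the nucleus, where they switch on cytokine genes and, at the same time, genes whose products end the signal. *Nfkbia* and *Tnfaip3* are such inhibitors and both are commonly read as signs that the pathway has been active. In the lung, macrophages, neutrophils and epithelial cells all use it.

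None of the 10 genes passed the threshold of 0.05 on the p adjusted over all genes tested in any of the 6 comparisons made with limma. At P1.5 *Tlr2*, *Bcl3* and *Socs3* stood higher in both Wfdc2 GFP/GFP libraries than in both Wfdc2 +/+ libraries, by about 1 on the log2 scale. Between E18.5 and P1.5, *Nfkbia* was higher in all 4 later libraries and *Nfkbiz* lower in all 4. One library, P1.5 Wfdc2 GFP/GFP replicate 2, had the highest value of 6 of the 10 genes, and without it the P1.5 differences of *Tlr2*, *Bcl3* and *Socs3* were smaller, while the negative ones of *Zfp36* and *Ptgs2* were larger in size.

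Sequence upstream of the start site was taken from RefSeq (GRCm38.p6), which matched 7 of the 10 genes and had no entry for *Tlr4*, *Nfkbiz* or *Nfkb1*. The 4 sequences below are shown because the main patterns at P1.5 and between the stages concern these genes. Capitals mark a match to the kappaB consensus or to the STAT motif TTCNNNGAA, searched on both strands in the 250 bases before the start. Only bases that lie before both the RefSeq start and the deposited gene span are printed, except for *Socs3*, whose deposited span starts further upstream and for which the match is shown with 8 bases on each side. The *Tlr2* stretch is chr3:83841768-83841858 on the minus strand, that of *Nfkbia* chr12:55492648-55492897 on the minus strand, that of *Bcl3* chr7:19822771-19823005 on the minus strand, and that of *Socs3* chr11:117969504-117969528 on the minus strand, each written 5′ to 3′.
Tlr2: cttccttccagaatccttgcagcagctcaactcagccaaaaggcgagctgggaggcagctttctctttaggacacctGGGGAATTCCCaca
Nfkbia: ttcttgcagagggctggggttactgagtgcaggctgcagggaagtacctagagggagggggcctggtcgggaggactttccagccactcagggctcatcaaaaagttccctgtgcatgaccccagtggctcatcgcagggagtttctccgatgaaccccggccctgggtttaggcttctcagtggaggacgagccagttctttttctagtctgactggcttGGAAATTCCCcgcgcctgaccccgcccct
Bcl3: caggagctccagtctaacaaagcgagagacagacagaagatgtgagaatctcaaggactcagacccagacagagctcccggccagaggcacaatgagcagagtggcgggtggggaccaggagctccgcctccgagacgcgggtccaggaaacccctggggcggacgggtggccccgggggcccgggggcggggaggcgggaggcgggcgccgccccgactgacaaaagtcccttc
Socs3: aaccagccTTCTTAGAAgggagggg
In *Tlr2* 2 overlapping kappaB matches began 173 and 172 bases before the RefSeq start, and in *Nfkbia* 1 match began 29 bases before it. *Tnfaip3* also held the motif, so that 3 of the 7 genes had it, against 7.25% of all 32851 windows of this length. The STAT motif stood 154 bases before the start of *Socs3* and also in *Zfp36*, in 2 of the 7 genes and in 7.02% of all windows. *Bcl3* and *Ptgs2* held neither motif in this window.

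Depth and library make-up bear on all values below. The paper's methods name different Illumina instruments and do not say which library ran on which. The part of the instrument in the differences was not tested. Library totals, recovered from the deposited values, ran from 19457647 to 37209332 reads. They differ from the mapped reads that the paper lists. At these totals 3 reads, taken as the floor of detection, stood for 0.0806 to 0.154 RPM, which is reads scaled to a common library size. Replicate 1 of every group carried *Xist* reads (4121 to 90980) and replicate 2 *Ddx3y* reads (972 to 2175), so replicate number and sex of the library coincided. E18.5 Wfdc2 GFP/GFP replicate 1 stood apart, with epithelial markers at 9133 RPM against 19384 to 24660 in the other E18.5 libraries and macrophage and monocyte markers at 251 against 600 to 836. P1.5 Wfdc2 +/+ replicates 1 and 2 also differed, with fibroblast markers at 766 and 4103 RPM, endothelial at 614 and 1705 and hepatocyte at 8.06 and 101. Their median log2 RPKM over the genes tested was −0.96 and −0.22. The part of this in the P1.5 differences was not tested. Genes with a span of over 100 kb lay below their mean over the 8 libraries in P1.5 Wfdc2 +/+ replicate 1, P1.5 Wfdc2 GFP/GFP replicate 1 and replicate 2, with median deviations of −0.64, −0.64 and −0.52 on the log2 scale, and this class includes *Nfkb1* (106.9 kb) and *Tlr4* (102.7 kb). Shorter genes moved too. Under 5 kb, the class of *Nfkbia*, *Socs3* and *Zfp36*, the medians ran from −0.43 to −0.0056 at E18.5 and from −0.063 to 0.35 at P1.5. From 20 to 50 kb, the class of *Nfkbiz* (27.5 kb), they ran from 0.14 to 0.48 at E18.5 and from −0.56 to 0.21 at P1.5. Epithelial markers of the lung were present in every library, none of the 9 being without reads. In whole lung, fewer cells of a type and less RNA per cell cannot be told apart. The labels do not say that the 2 libraries of a group came from separate litters. The p-values therefore measure the spread between these libraries, pooled over the 4 groups. An exact permutation test of 2 against 2 cannot go below p = 0.33.

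Compared per kilobase of exon, *Nfkbia*, which encodes IkB-alpha, was the most abundant of the 10, at 72.8 ± 27.2 RPM per exon kilobase (SD, n = 8). *Zfp36*, whose product binds AU-rich elements and destabilises cytokine mRNAs, followed at 22.6 ± 7.85. *Socs3*, an inhibitor of JAK-STAT signalling, stood at 10.7 ± 6.98, *Nfkbiz* at 6.70 ± 2.70, *Nfkb1* at 6.51 ± 3.37 and *Tlr2* at 4.10 ± 1.73. *Bcl3* stood at 3.72 ± 2.95, *Tlr4* at 2.54 ± 0.675, *Tnfaip3* at 1.51 ± 0.537 and *Ptgs2*, the inducible cyclooxygenase gene, at 0.295 ± 0.168. Only *Nfkbia* and its neighbour *Zfp36* did not overlap in range (39.3 to 122.8 against 11.3 to 31.5); every other pair of neighbours in this order overlapped over the 8 libraries. *Ptgs2* rested on 5 to 69 reads in a library, and *Tnfaip3* on 84 to 518.

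**Figure D1:**
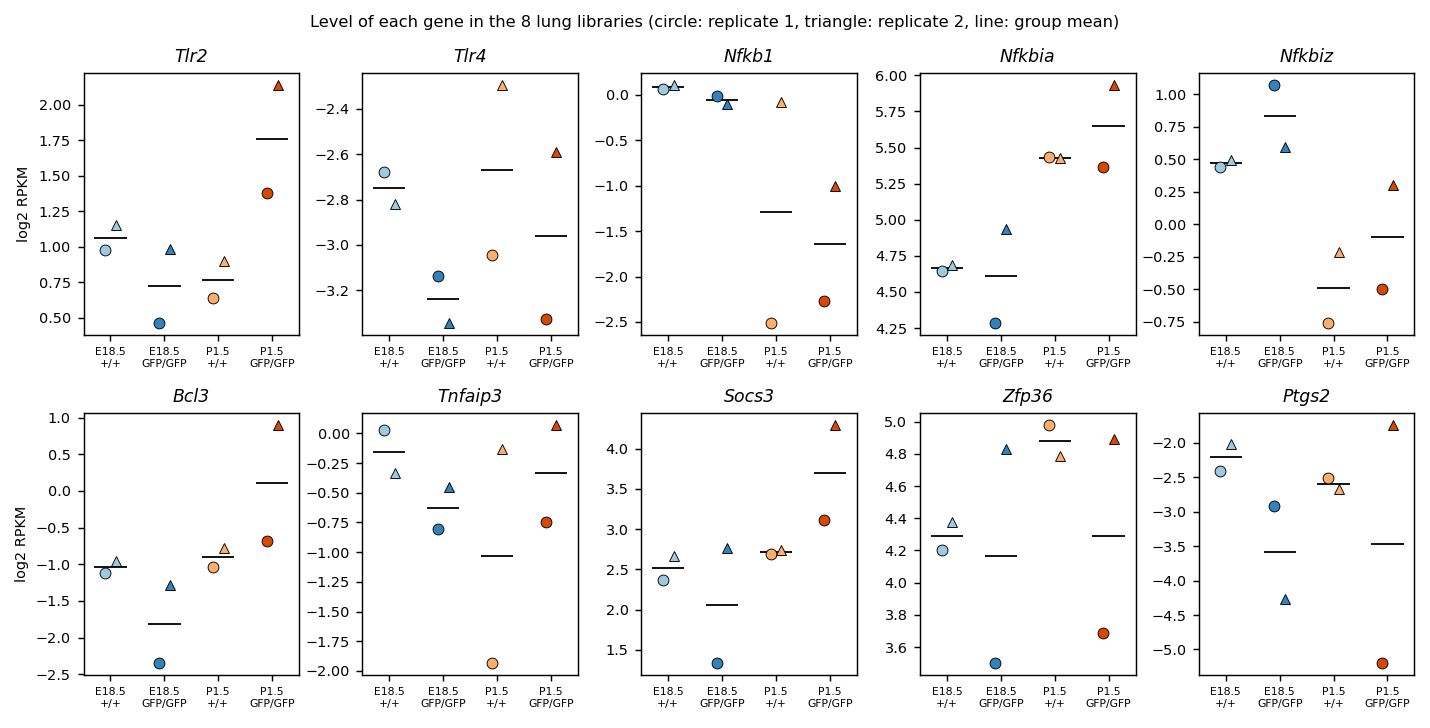
Log2 RPKM (vertical axis of each panel, own scale) of each of the 10 genes in the 8 libraries, by stage and genotype; circles are replicate 1, triangles replicate 2 and lines group means. *Tlr2*, *Bcl3* and *Socs3* are highest in the 2 P1.5 Wfdc2 GFP/GFP libraries, and *Nfkb1* is lowest in the 2 P1.5 libraries numbered 1.

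The comparison of the genotypes at P1.5 asks how the receptor and its feedback genes differ in the lung of newborn mutants. *Tlr2*, the receptor for bacterial lipoproteins (ENSMUSG00000027995, chromosome 3, 83836273 to 83841767, mm10), had 0.64 and 0.90 log2 RPKM in controls and 1.38 and 2.14 in mutants, from 186, 199, 331 and 708 reads. Both mutant libraries lay above both controls. The difference was 0.99 on the log2 scale (standard error 0.37, 95% interval 0.14 to 1.84, limma adjusted p = 0.396). It was 0.74 between the libraries numbered 1 and 1.24 between those numbered 2.

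*Bcl3*, an IkB-family co-regulator that binds the p50 and p52 subunits (chromosome 7, 19808462 to 19822770), had −1.03 and −0.78 log2 RPKM in controls and −0.68 and 0.90 in mutants. The 2 mutant libraries lay above the controls, replicate 1 narrowly and replicate 2 by far. The difference was 1.02 (standard error 0.59, limma adjusted p = 0.577), and 0.23 without Wfdc2 GFP/GFP replicate 2 or 1.81 without replicate 1. The span of *Bcl3* overlaps 2 antisense genes, and whether counting used the strand is not given in the sources used here. *Socs3* (chromosome 11, 117966079 to 117970047) had 2.69 and 2.74 log2 RPKM in the Wfdc2 +/+ libraries against 3.11 and 4.29 in the Wfdc2 GFP/GFP libraries. Its 2 controls nearly coincided, and the difference was 0.99 (standard error 0.54, limma adjusted p = 0.553). Without Wfdc2 GFP/GFP replicate 2 it was 0.40 for *Socs3* and 0.61 for *Tlr2*, and without replicate 1 it was 1.58 and 1.37.

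The other 7 genes overlapped between the genotypes at P1.5. *Nfkbia* stood at 5.43 and 5.43 log2 RPKM in controls and at 5.37 and 5.93 in mutants, a difference of 0.22 (standard error 0.34, 95% interval −0.57 to 1.01). *Tnfaip3*, which encodes the ubiquitin-editing enzyme A20 (chromosome 10, 19000910 to 19015657), had −1.93 and −0.13 in controls and −0.74 and 0.07 in mutants, so the 2 control libraries alone spanned nearly the whole range. The differences of the 7 genes ran from −0.87 for *Ptgs2* to 0.69 for *Tnfaip3*, and that of the second receptor, *Tlr4*, was −0.29 (standard error 0.48), but 0.062 with quantile normalization. *Zfp36* (chromosome 7, 28376784 to 28379255, with an antisense gene in its span) had 4.98 and 4.78 log2 RPKM in controls and 3.69 and 4.89 in mutants. Only the mutant library numbered 1 stood apart, and the difference was −0.59 (standard error 0.53). *Ptgs2* (chromosome 1, 150100124 to 150108010) had 5 and 69 reads in the Wfdc2 GFP/GFP libraries against 30 and 24 in the controls.

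By count, 0 of the 10 genes passed the adjusted threshold at P1.5, where 0.0128% of all genes tested did, and 1 (*Tlr2*) had an unadjusted p under 0.05, where 10.9% of all genes did. Among the 10, 3 did not overlap and were higher in Wfdc2 GFP/GFP, against 12.6% of all genes tested, and 0 were lower without overlap, against 26.9%. The median difference of the 10 was 0.30, where that of all genes tested was −0.20. Limma voom on the recovered reads also passed 0 of the 10. The summed markers of macrophages and monocytes were 819 and 1297 RPM in controls and 1340 and 1408 in mutants, with none of the 12 markers at 0. Those of neutrophils were 1903 and 682 against 1472 and 939, where *Ly6g* had no reads in Wfdc2 GFP/GFP replicate 1 and *Elane* none in Wfdc2 +/+ replicate 2. Their part in the differences was not tested.

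**Figure D2:**
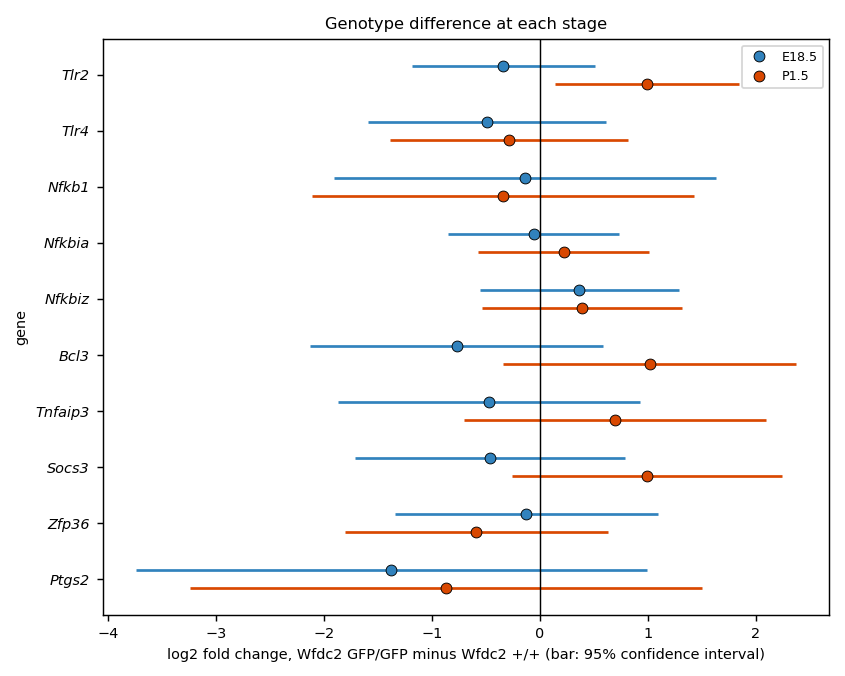
Log2 fold change of Wfdc2 GFP/GFP against Wfdc2 +/+ lungs (horizontal axis) for each of the 10 genes at E18.5 and P1.5; points are limma estimates and bars their 95% confidence intervals. The P1.5 interval of *Tlr2*, 0.14 to 1.84, is the 1 interval that does not cross 0, before adjustment over all genes.

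At E18.5, the same comparison gave lower means in the mutants for 9 of the 10 genes. Of these, 5 did not overlap, against 9.46% of all genes tested, namely *Tlr4*, *Nfkb1*, *Bcl3*, *Tnfaip3* and *Ptgs2*. *Bcl3* had −1.12 and −0.96 log2 RPKM in controls and −2.34 and −1.28 in mutants, a difference of −0.77 (standard error 0.59), which was −0.24 without Wfdc2 GFP/GFP replicate 1 and −1.30 without replicate 2. *Tlr4*, the receptor for lipopolysaccharide (chromosome 4, 66827584 to 66930284), had −2.68 and −2.82 against −3.14 and −3.34, a difference of −0.49 (standard error 0.48). The 2 groups lay close together and did not overlap. *Nfkb1* (chromosome 3, 135584655 to 135691547) differed by −0.14 (standard error 0.76), *Tnfaip3* by −0.48 (standard error 0.60) and *Ptgs2* by −1.38 (standard error 1.02, from 51, 61, 39 and 12 reads). These standard errors pool the spread of all 4 groups. For *Nfkb1* the SD of log2 RPKM in controls and mutants was 0.034 and 0.067 at E18.5 but 1.72 and 0.90 at P1.5. The *Ptgs2* difference was −0.70 without Wfdc2 GFP/GFP replicate 2 and −2.05 without replicate 1.

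*Nfkbiz*, which encodes the nuclear co-regulator IkB-zeta (chromosome 16, 55811375 to 55838899), was the exception at E18.5. It had 0.44 and 0.50 log2 RPKM in controls and 1.07 and 0.60 in mutants, so that 1 gene of the 10 was higher without overlap, against 26.5% of all genes tested. Its difference was 0.36 (standard error 0.40) and 0.13 without Wfdc2 GFP/GFP replicate 1. None of the 10 passed the adjusted threshold, by limma or by voom, where 0.0192% of all genes did, and 0 had an unadjusted p under 0.05, where 4.37% did. The median of the 10 was −0.40 and that of all genes tested 0.09. *Socs3*, *Zfp36* and *Nfkbia* were lowest of the E18.5 libraries in the Wfdc2 GFP/GFP library numbered 1, at 1.34, 3.50 and 4.29 log2 RPKM, and highest in the one numbered 2, at 2.77, 4.83 and 4.93. The part of the lower macrophage and epithelial markers of replicate 1 in these values was not tested.

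The difference of the genotype effect between the stages was tested directly. It was 1.33 for *Tlr2* (standard error 0.52, limma adjusted p = 0.441), 1.79 for *Bcl3* (standard error 0.83, adjusted p = 0.525) and 1.45 for *Socs3* (standard error 0.76, adjusted p = 0.571). It was positive for 8 of the 10 genes, where 35.6% of all genes tested were positive, and 0 genes passed the adjusted threshold, among the 10 or among all 15627 (0%). Without P1.5 Wfdc2 GFP/GFP replicate 2 only 4 of the 10 were positive and 6 negative, and their median was −0.086. The value for *Socs3* was 0.74 without E18.5 Wfdc2 GFP/GFP replicate 1 and 2.16 without E18.5 Wfdc2 GFP/GFP replicate 2. Among the 10, only *Tlr2* had an unadjusted p under 0.05, against 10.2% of all genes.

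Between the stages, with both genotypes combined, *Nfkbia* (ENSMUSG00000021025, chromosome 12, 55489411 to 55492647) had 4.65, 4.69, 4.29 and 4.93 log2 RPKM at E18.5 and 5.43, 5.43, 5.37 and 5.93 at P1.5. All 4 later libraries lay above all 4 earlier ones. The difference was 0.90 on the log2 scale (standard error 0.24, limma adjusted p = 0.0579), 0.76 in Wfdc2 +/+ and 1.04 in Wfdc2 GFP/GFP. *Nfkbiz* had 0.44, 0.50, 1.07 and 0.60 at E18.5 and −0.76, −0.22, −0.49 and 0.30 at P1.5. All 4 later libraries lay below the earlier ones, and the difference was −0.94 (standard error 0.28, limma adjusted p = 0.0653), with −0.95 in Wfdc2 +/+ and −0.93 in Wfdc2 GFP/GFP. Both fell just short of the threshold. With the filter raised to a mean of 0.5 RPKM, *Nfkbia* stood at an adjusted p = 0.0452 and *Nfkbiz* at 0.0494, where 17.9% of all genes passed. With each library centred on genes of like span the differences were 0.62 for *Nfkbia* and −0.47 for *Nfkbiz* (limma adjusted p = 0.0635 and 0.107). Over the 12 other settings tried the adjusted p ran from 0.0435 to 0.0863 for *Nfkbia* and from 0.0494 to 0.145 for *Nfkbiz*.

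*Nfkb1*, which encodes the precursor p105 and the p50 subunit, had −0.10 to 0.11 log2 RPKM in the E18.5 libraries, which were nearly level. At P1.5 it had −2.51 and −0.08 in controls and −2.27 and −0.998 in mutants. The 2 libraries numbered 1 were lowest, and Wfdc2 +/+ replicate 2 stayed within the E18.5 range. The difference was −1.48 (standard error 0.54, limma adjusted p = 0.0917), −2.09 without P1.5 Wfdc2 +/+ replicate 2 (adjusted p = 0.00730, where 45.6% of all genes passed), −0.87 without P1.5 Wfdc2 +/+ replicate 1, and −0.73 with each library centred on genes of like span. Over the other settings the limma adjusted p of *Nfkb1* ran from 0.0706 to 0.249. *Tnfaip3* resembled it in Wfdc2 +/+, with 84 reads in P1.5 replicate 1 against 262 to 518 in the other Wfdc2 +/+ libraries.

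*Bcl3* and *Socs3* had the largest positive stage differences in the mutants. *Bcl3* differed by 1.92 in Wfdc2 GFP/GFP (standard error 0.59, limma adjusted p = 0.0742) and by 0.14 in Wfdc2 +/+ (standard error 0.59). *Socs3* differed by 1.65 (standard error 0.54, adjusted p = 0.0824) and by 0.20 (standard error 0.54). *Tlr2* was lower at P1.5 in both Wfdc2 +/+ libraries, by 0.29 on average, and higher in both Wfdc2 GFP/GFP libraries, by 1.03 (adjusted p = 0.0956). Without P1.5 Wfdc2 GFP/GFP replicate 2 the mutant stage difference was 1.13 for *Bcl3* and 0.65 for *Tlr2*, and without E18.5 Wfdc2 GFP/GFP replicate 1 it was 0.93 for *Socs3*. The tests of these differences between the genotypes are the 3 given above for *Tlr2*, *Bcl3* and *Socs3*, and none passed after adjustment.

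By count, 0 of the 10 genes passed the adjusted threshold between the stages in both genotypes together, where 5.14% of all genes tested did, and 5 had an unadjusted p under 0.05, where 39% did. Without overlap, 1 of the 10 was higher, against 7.28% of all genes, and 1 lower, against 13.7%. In Wfdc2 +/+ alone 0 of the 10 passed (0.0576% of all genes) and 1 had an unadjusted p under 0.05 (11.8%). In Wfdc2 GFP/GFP alone 0 passed (4.55%), 5 had an unadjusted p under 0.05 (35.6%), and 4 were higher without overlap (18.7%). *Nfkbiz* and *Nfkb1* were lower without overlap there, and the share of all genes that were so is not given here. Limma voom passed 0 of the 10 in each of these 3 comparisons. With each library centred on its median, *Tlr2* (adjusted p = 0.0401) and *Bcl3* (adjusted p = 0.0420) passed in Wfdc2 GFP/GFP, as did 8.18% of all genes, and the adjusted p over all settings ran up to 0.144 and 0.118. The median difference of all genes tested between the stages was −0.32 in both genotypes together and −0.46 in Wfdc2 GFP/GFP, and that of the 10 genes was 0.27 and 0.29. Without P1.5 Wfdc2 GFP/GFP replicate 2 the medians of the 10 were 0.025 and −0.10, and without P1.5 Wfdc2 GFP/GFP replicate 1 they were 0.61 and 1.02. Neutrophil markers were 60.5 to 98.2 RPM at E18.5 and 682 to 1903 at P1.5, and their part in the stage differences was not tested.

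**Figure D3:**
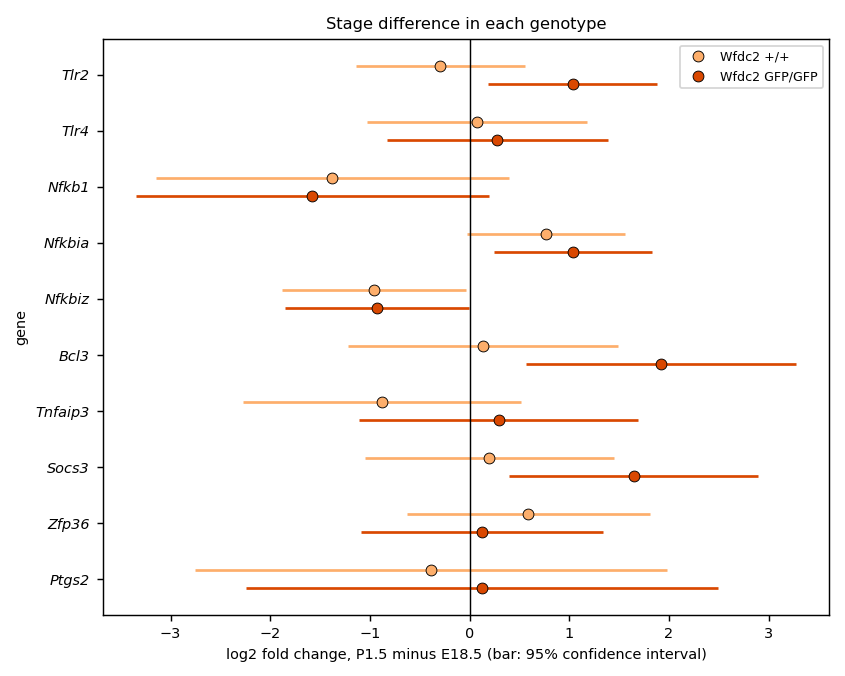
Log2 fold change of P1.5 against E18.5 lungs (horizontal axis) for each of the 10 genes in Wfdc2 +/+ and in Wfdc2 GFP/GFP mice; points are limma estimates and bars their 95% confidence intervals. The points of *Nfkbia*, *Nfkbiz* and *Nfkb1* lie on the same side of 0 in both genotypes, those of *Tlr2*, *Tnfaip3* and *Ptgs2* on opposite sides with intervals that overlap.

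Other genes of the pathway were described by lists. Over all genes tested, limma passed 0.0128% by genotype at P1.5 and 5.14% between the stages. The unadjusted p was under 0.05 for 10.9% and 39%. Of 8 other Toll-like receptors tested, limma passed 0 at P1.5 between the genotypes or between the stages, and 0 had an unadjusted p under 0.05 in either. Their median difference by genotype at P1.5 was 0.30, as for the 10 genes. *Tlr1* had the largest difference by genotype, 1.73 (standard error 1.48), then *Tlr13* with 0.80, and *Tlr5* stood at −1.56. Of 17 co-receptors, adaptors and kinases, 1 rose between the stages, *Cd14*, the lipopolysaccharide co-receptor of myeloid cells, by 2.47 (standard error 0.36, limma adjusted p = 0.0205). By genotype at P1.5 *Cd14* differed by 1.60 and the adaptor gene *Myd88* by 1.07, with adjusted p of 0.344 and 0.412, and both had no overlap between the genotypes. The kinase gene *Ikbke* stood at −1.38 and the adaptor gene *Ticam2* at −1.26, with limma adjusted p of 0.297 and 0.466. Both were lower in the mutants without overlap. In this list 5 genes were higher without overlap and 3 lower, against 12.6% and 26.9% of all genes tested. By genotype at P1.5 the unadjusted p was under 0.05 for 2 higher and 1 lower genes of this list.

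Of 7 NF-kB subunit and IkB kinase genes tested, 1 rose between the stages, *Relb*, the non-canonical subunit, by 1.47 (standard error 0.26, limma adjusted p = 0.0331). *Relb* differed by genotype at P1.5 by 1.21 (standard error 0.37, adjusted p = 0.340), and *Rela* by 0.04. Of 16 other feedback inhibitors 0 passed in either comparison, with medians of 0.20 by genotype at P1.5 and 0.32 between the stages. The unadjusted p was under 0.05 for 1 higher by genotype, where 10.9% of all genes were under it. Between the stages it was for 5 higher and 4 lower, where 39% of all genes were. *Fam105b*, the linear deubiquitinase gene *Otulin*, and *Zc3h12a*, an RNase of cytokine mRNAs, had the largest genotype differences, 0.87 and 0.86. Of 15 genes of the SOCS and JAK-STAT group 0 passed in either comparison. The unadjusted p was under 0.05 for 2 lower genes by genotype and 6 lower genes between the stages, against 10.9% and 39% of all genes. *Il6ra* had the lowest genotype difference at P1.5, −1.95 (standard error 0.55, adjusted p = 0.318), and *Stat3* the highest, 0.68.

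Of 7 AU-rich element binding genes, the relatives of *Zfp36* among them, 0 passed by genotype or between the stages (unadjusted, 1 and 5 lower genes), and *Zfp36l1* stood at −0.85 by genotype at P1.5. Over all genes tested, the unadjusted p was under 0.05 for 10.9% by genotype at P1.5 and 39% between the stages. Of 16 prostaglandin genes 0 passed in these 2 comparisons (unadjusted, 3 higher and 1 lower by genotype, 3 higher and 2 lower between the stages). *Ptges*, the inducible prostaglandin E synthase gene that acts after *Ptgs2*, differed by 2.01 at P1.5 (standard error 0.40, adjusted p = 0.219) without overlap, and *Hpgd*, which inactivates prostaglandins, by −1.58. Of 12 glucocorticoid-responsive genes 1 passed between the stages, *Sgk1*, which rose by 1.25 (adjusted p = 0.0464), and *Zbtb16* stood at −3.50 by genotype at P1.5 (adjusted p = 0.302).

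Of 28 NF-kB targets 5 rose between the stages with both genotypes together and 0 fell, where 5.14% of all genes passed. *Cxcl2*, a neutrophil chemokine, stood at 5.01 (standard error 0.44, limma adjusted p = 0.00616), *Saa3*, an acute-phase protein, at 5.02, *Lcn2* at 3.19, *Il6* at 3.19 and *Il1b* at 4.27. *Saa3* differed by 0.71 in Wfdc2 +/+ alone and by 9.33 in Wfdc2 GFP/GFP alone, and *Lcn2* by 0.77 and 5.62. *Il1b* differed by 1.66 and 6.88, *Cxcl2* by 2.96 and 7.05, and *Il6* by 2.76 and 3.63. Of the 28, 0 passed in Wfdc2 +/+ (0.0576% of all genes) and 7 in Wfdc2 GFP/GFP (4.55%). By genotype at P1.5, 0 of the 28 passed, and 12 had an unadjusted p under 0.05 and a higher mean, where 3.61% of all genes did. A lower mean was found for 3, *Traf1* at −1.77 (unadjusted p under 0.05), *Csf2* at −1.18 and *Gadd45b* at −0.84. The list was chosen with earlier results of these data known, so its counts give no independent support. The paper reported *Il1a*, *Ccl4* and *Cxcl2* of this list as upregulated in these P1.5 lungs. The median of the 28 was 2.36. The summed level of all 30 genes of the list, with the untested *Sele* and *Bcl2a1d*, was 886 and 842 RPM in P1.5 Wfdc2 +/+. It was 1781 and 3614 in P1.5 Wfdc2 GFP/GFP, against 558 to 704 at E18.5. The summed level of the 10 genes was 312 and 413 against 284 and 522 at P1.5, and these overlapped. Of 18 immediate early genes 6 rose between the stages, where 5.14% of all genes passed. Among them were *Fosb*, by 2.77, *Klf2*, by 2.02, and *Dusp1*, a MAP kinase phosphatase gene, by 1.62, and *Egr3* fell by 3.44 on the log2 scale.

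**Figure D4:**
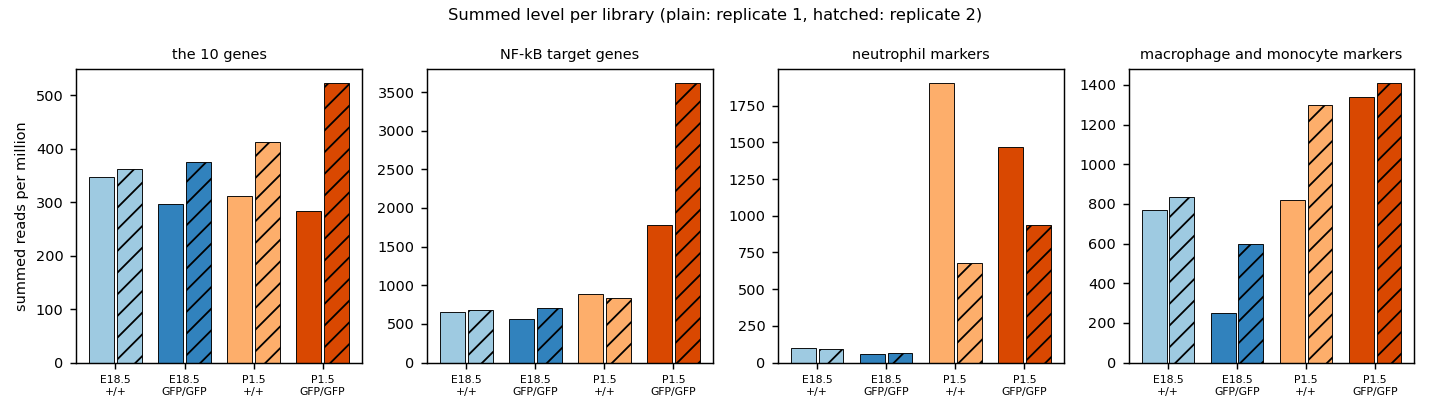
Summed RPM (vertical axis, from 0) of the 10 genes, of 30 NF-kB target genes, of 12 neutrophil markers and of 12 macrophage and monocyte markers in each of the 8 libraries; plain bars are replicate 1 and hatched bars replicate 2. The NF-kB targets reach 1781 and 3614 in P1.5 Wfdc2 GFP/GFP, and neutrophil markers reach 682 or more in all 4 P1.5 libraries.

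Marker lists were read against the 5.14% of all genes that passed between the stages. Of 12 neutrophil markers 8 rose between the stages, of 12 macrophage and monocyte markers 1 (*Marco*, by 3.41), and of 4 lymphocyte markers tested 3. Of the others, 1 of 9 epithelial markers (*Scgb1a1*), 1 of 6 cardiac (*Tnni3*) and 1 of 5 hepatocyte markers tested (*Apoa1*) rose, 1 of 6 fibroblast markers (*Pdgfra*) fell, and 0 of 6 endothelial and 0 of 4 erythroid markers passed. By genotype at P1.5 and at E18.5, 0 genes of these lists passed. At P1.5 the unadjusted p was under 0.05 for 1 fibroblast, 1 cardiac and 2 hepatocyte markers, against 10.9% of all genes. At E18.5 it was for 1 macrophage, 1 erythroid and 1 cardiac marker, against 4.37%.

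Across the 8 libraries the mean profile of the 10 genes, each centred on its own mean, was highest in P1.5 Wfdc2 GFP/GFP replicate 2 (0.77 on the log2 scale) and lowest in P1.5 Wfdc2 GFP/GFP replicate 1 (−0.46). Among 9414 other genes averaging 0.5 RPKM or more, those most like it by Pearson's r were *Psmc3ip* (0.95), *Rab11a* (0.95), *Ccr1* (0.94), *Stx12* (0.94), *Aars* (0.94), *Eid2b* (0.92) and *Tmem5* (0.91). These points share their libraries, depth and 1 high library. The gene most like each member was *Tbl3* for *Tlr2*, *Nkapl* for *Tlr4*, *Zfp105* for *Nfkb1*, *Prkag1* for *Nfkbia*, *Tes* for *Nfkbiz*, *Acot9* for *Bcl3*, *Ostc* for *Tnfaip3*, *Nudt3* for *Socs3*, *Csf2* for *Zfp36* and *Crnkl1* for *Ptgs2*, with r from 0.88 to 0.997 over 8 libraries. Among the 10 themselves, *Bcl3* and *Socs3* (r = 0.98), *Tlr2* and *Bcl3* (0.92) and *Tlr2* and *Socs3* (0.91) were most alike, and *Nfkbia* and *Nfkbiz* least (−0.67).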

How the data were processed

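Total lung RNA of 8 libraries, 2 in each of 4 groups by stage and genotype, was prepared with a strand-marking kit. Per the labels and methods, the authors trimmed reads with Trim Galore 0.4.0, mapped them to mm10 with TopHat2 2.1.1 and deposited log2 RPKM from SeqMonk. The kilobases are the whole gene span, and a gene without reads carries 0.9 read. Reads were recovered from the steps of the values, 99.86% to 99.97% within 0.02 of a whole read. Levels between genes used the exons of GENCODE M21 within that span.

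The log2 values were fitted with limma 3.58.1 (R 4.3.3), using a mean for each group (4 residual degrees of freedom) and a trended prior, over 15627 genes averaging 0.05 RPKM or more. P-values are two-sided, Benjamini-Hochberg adjusted over all genes. The fit was tested on simulated data. Python 3.11.15 served for the rest.

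The members and gene lists were chosen with earlier results of these data known. Beside the members and *Wfdc2*, the text names from each list the genes under the adjusted threshold and up to 2 with the largest and smallest differences, and the genes most alike in profile, of which 1 is not reported here. *Rela* and *Otulin* were added after values were seen. Alternatives were pseudocounts of 0.1 and 1 RPKM, no filter or a mean of 0.5 RPKM, quantile normalization, the replicate number as a block, centring on the median, fits of only the 4 libraries compared, no trend in the prior, voom on recovered reads, each library left out, and, chosen after seeing the data, centring on genes of like span.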

Additional observations from a re-analysis of the deposited data

Results flagged for a closer look

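*Bcl3* and *Tlr2* were picked out because their libraries moved opposite ways without overlap. Picking genes in this way favours a large difference of the differences and a stable sign when libraries are left out. The share of all genes tested that meet the same rule was not counted, so its chance level is not known. Genes outside this group also met it. Without overlap, *Tlr13*, *Tlr7*, *Cd36*, *Sod2*, *Saa3*, *Lcn2*, *Il1a* and *Il1b* were lower in mutants at E18.5 and higher at P1.5, as *Bcl3* was. Between the stages, *Tlr13*, *Cd36* and *Sod2* were lower at P1.5 in Wfdc2 +/+ and higher in Wfdc2 GFP/GFP, as *Tlr2* was. *Ikbke* met the rule in the reverse direction in both comparisons. The libraries of *Bcl3* moved opposite ways in the 2 stages. Both Wfdc2 GFP/GFP libraries lay below both Wfdc2 +/+ libraries at E18.5 (difference −0.77) and above both at P1.5 (1.02). The difference of these differences was 1.79 on the log2 scale (standard error 0.83, 95% interval −0.13 to 3.70, limma adjusted p = 0.525), and it ran from 0.997 to 2.58 with each library left out in turn.

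*Tlr2* moved opposite ways in the 2 genotypes. Both P1.5 libraries lay below both E18.5 libraries in Wfdc2 +/+ mice (−0.29) and above both in Wfdc2 GFP/GFP mice (1.03). The difference of these differences was 1.33 (standard error 0.52, 95% interval 0.13 to 2.53, limma adjusted p = 0.441), between 0.95 and 1.71 with each library left out.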

How the results depend on the processing

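Among 778 values of the 10 genes under other settings, 21 changed sign and 8 passed the adjusted threshold that the reported fit did not; without 1 library, 39 of 320 changed sign and 9 passed. The number of the 10 genes that passed stayed at 0 in the genotype comparisons at P1.5 and E18.5 and in their difference. Between the stages in both genotypes it was 2 with the filter at 0.5 RPKM, 2 with median centring (*Nfkbia* and *Bcl3*) and 0 to 3 without 1 library. In Wfdc2 GFP/GFP it was 2 with median centring, 1 with quantile normalization and 1 with the 4 libraries alone (*Bcl3* in each), and 0 to 2 without 1 library; in Wfdc2 +/+ it was 0 to 2 without 1 library. Without P1.5 Wfdc2 +/+ replicate 2, limma passed *Nfkbia* (adjusted p = 0.0302), *Nfkbiz* (0.0205) and *Nfkb1* (0.00730) between the stages in both genotypes, where 45.6% of all genes passed, and *Nfkb1* and *Tnfaip3* in Wfdc2 +/+, where 13.9% did. Without E18.5 Wfdc2 GFP/GFP replicate 2 it passed *Nfkbia* and *Socs3*, in both genotypes and in Wfdc2 GFP/GFP, where 20.2% and 15.7% of all genes passed. The cause was not tested.

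Log2 differences changed sign as follows. By genotype at P1.5 *Tlr4* was 0.062 and *Nfkbia* −0.017 with quantile normalization, and *Tlr4* was 0.049 and *Nfkb1* 0.0010 with centring on genes of like span. The difference of the genotype effect between the stages became −0.044 for *Nfkbiz* at a pseudocount of 1 RPKM, −0.016 for *Nfkbia* with quantile normalization, and for *Nfkb1* 0.21 with median centring (also with the replicate block added), 0.29 with quantile normalization and 0.27 with centring on genes of like span. Between the stages in both genotypes *Ptgs2* became 0.0039 and 0.0094 at pseudocounts of 0.1 and 1 RPKM. With median centring, alone or with the block, *Ptgs2* was 0.34 and *Tnfaip3* 0.18, and with quantile normalization 0.33 and 0.19. *Socs3* in Wfdc2 +/+ became −0.029 with like-span centring, and *Zfp36* in Wfdc2 GFP/GFP −0.25 with it and −0.20 with quantile normalization. The cause was not tested.

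Leaving out single libraries, the values that changed sign had these ranges. By genotype at P1.5 these were *Tlr4* (−0.66 to 0.087), *Nfkbia* (−0.062 to 0.50), *Nfkbiz* (−0.0071 to 0.79), *Nfkb1* (−1.56 to 0.87), *Tnfaip3* (−0.21 to 1.59), *Zfp36* (−1.19 to 0.012) and *Ptgs2* (−2.60 to 0.85). At E18.5 these were *Nfkbia* (−0.38 to 0.27), *Socs3* (−1.18 to 0.25) and *Zfp36* (−0.79 to 0.54). In the difference between the stages these were *Tlr4* (−0.17 to 0.58), *Nfkbia* (−0.047 to 0.60), *Nfkbiz* (−0.37 to 0.42), *Nfkb1* (−1.42 to 1.01), *Zfp36* (−1.13 to 0.20) and *Ptgs2* (−1.22 to 2.23). Between the stages in both genotypes these were *Tlr4* (−0.0086 to 0.37), *Tnfaip3* (−0.74 to 0.16) and *Ptgs2* (−0.99 to 0.73), in Wfdc2 +/+ *Tlr4* (−0.30 to 0.45) and *Tnfaip3* (−1.78 to 0.023), and in Wfdc2 GFP/GFP *Tlr4* (−0.088 to 0.65), *Tnfaip3* (−0.11 to 0.70), *Zfp36* (−0.54 to 0.79) and *Ptgs2* (−1.60 to 1.85). The median of the 10 by genotype at P1.5 ran from −0.043 to 0.82.

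Libraries with the same replicate number shared a sex, and their deviations correlated across 15627 genes at 0.23 within E18.5, 0.21 within P1.5, −0.02 within Wfdc2 +/+ and −0.01 within Wfdc2 GFP/GFP. The replicate block left 0 of the 10 genes past the threshold in all comparisons, as in the reported fit, and moved the counts over all genes from 803 to 287 between the stages in both genotypes, from 711 to 125 in Wfdc2 GFP/GFP, from 9 to 0 in Wfdc2 +/+, and to 0 at P1.5 and E18.5 (9 and 1 with the block within a stage). Over all genes tested, the count at P1.5 ran from 0 to 21 under the other settings and from 1 to 24 without 1 library, against 2 reported. At E18.5 it ran from 0 to 22 and from 0 to 1, against 3. Between the stages in both genotypes it ran from 77 to 1842 and from 28 to 7125 (without P1.5 Wfdc2 +/+ replicate 2), against 803, in Wfdc2 +/+ from 0 to 52 and from 0 to 2166, against 9, and in Wfdc2 GFP/GFP from 0 to 3036 and from 0 to 2449, against 711. For the difference between the stages it was 0 under every other setting and 0 to 2 without 1 library. The kappaB motif matched 3 of the 7 genes in its looser form too, against 9.55% of all windows, and the looser STAT motif 4 instead of 2, against 55.24%. With 2 libraries in a group, *Ptgs2* at 5 to 69 reads and *Tnfaip3* at 84 to 518 had the fewest reads of the 10 in their lowest libraries.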
